A study of Mus musculus with 16 samples.

Results

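The genes described here are those whose signal was at least 1 log2 unit, a doubling, higher in mouse embryonic stem cell (ESC) lines without the coiled coil of MBD3 than in lines with it, both with leukaemia inhibitory factor (LIF) and after its withdrawal. Of 30102 genes on the arrays, 12371 had a log2 signal above 7 on at least 1 of 16 arrays, and 87 of these met both differences. Leaving out 10 genes by the start of their symbol (2 Pramel, 1 Nlrp4, 1 Sohlh, 2 Gpx and 4 Slc genes) gave 77 members. They comprised 51 genes of varied function, 49 of them protein-coding and 2 long non-coding RNAs known by clone or predicted names, and 26 copies of small nucleolar RNA (snoRNA) genes in a single cluster on chromosome 7. The differences between the line classes chose these genes and are given as a description, with no test.

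All lines descend from EBRTcH3, wild-type ESCs from a male of the 129SV strain. In the other lines all forms of Mbd3 were knocked out and a stable vector was added. The 3 lines without a coiled coil carried an empty vector (Empty), MBD3a with the coiled coil deleted (deltaCC) or MBD3a with both the methyl-CpG-binding domain and the coiled coil deleted (deltaMBD&CC). The 5 lines with a coiled coil were EBRTcH3 itself and knockout cells given MBD3a (Mbd3a), MBD3b (Mbd3b), MBD3c (Mbd3c) or MBD3a without the methyl-CpG-binding domain (deltaMBD). Each line was cultured for 12 days without LIF and, separately, with LIF, and total RNA of each culture was hybridized to 1 array. The labels name no second culture of a line in either medium, so lines served as replicates, and p-values reflect how far these lines differ from each other. All lines other than EBRTcH3 carry a vector, and the labels do not say how many clones each line represents.

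MBD3 is a subunit of NuRD, a complex that joins nucleosome remodelling to histone deacetylation and acts mainly at promoters and enhancers. Its coiled coil contacts the GATAD2 subunits, which link the deacetylase and remodelling parts of the complex, while the methyl-CpG-binding domain of MBD3 binds methylated DNA poorly. LIF keeps mouse ESCs self-renewing through STAT3, and ESCs without MBD3 are known to leave self-renewal inefficiently when LIF is removed.

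The signals were log2 values normalised by robust multi-array averaging (RMA). Mbd3 itself read 7.45 without LIF and 7.00 with LIF in Empty, the lowest values of all arrays, against 8.45 to 9.59 in the lines that carry a form of the gene, deltaCC and deltaMBD&CC included. ESC identity was checked with Pou5f1, the pluripotency factor OCT4, which read 11.93 to 12.33 on the arrays without LIF and 12.24 to 12.56 on those with LIF. Other markers of cell state moved with LIF withdrawal. In lines without a coiled coil 5 of 18 pluripotency genes fell and none rose, and 3 of 15 trophectoderm and trophoblast genes rose and none fell (limma adjusted p under 0.05; of all genes tested 1.71% rose and 1.22% fell). In lines with a coiled coil 15 of the 18 fell and 2 rose, and 12 of the 15 rose and 1 fell (of all genes 21.3% rose and 14.5% fell). Without LIF, Krt18, a simple-epithelium keratin on the trophectoderm list, read 8.89 to 9.69 in lines without a coiled coil, against 11.15 to 12.36 in lines with it. With LIF, Krt18 was 1.33 higher in lines without a coiled coil. The median class difference of the 16 measured genes of that list was -0.73 without LIF and 0.34 with LIF. Over all genes it was 0.02 and 0.05. Without LIF, Elf5 (1.11), Eomes (0.72), Rhox9 (0.54), Tfap2c (0.49) and Rhox6 (0.30) of the same list went the other way, and the others of the 16 were lower. With LIF, 4 of the 16 were at least 1 higher, Eomes by 1.89, and none was at least 1 lower. The classes thus also differed in several markers of cell state after LIF withdrawal, and their part in the differences below was not tested.

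The 51 members other than snoRNA copies differed by a median of 1.54 log2 units without LIF (1.01 to 3.49) and of 1.47 with LIF (1.01 to 3.16). Over all genes the median difference was 0.02 without LIF and 0.05 with LIF. Every line without a coiled coil lay above every line with a coiled coil for 50 of the 51 without LIF, and for all 51 with LIF. Over all 30102 genes this complete separation held for 9.91% without LIF and for 9.69% with LIF, and since the separated values chose the members nothing is read from the count. The exception was Khdc3, described below.

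**Figure D1:**
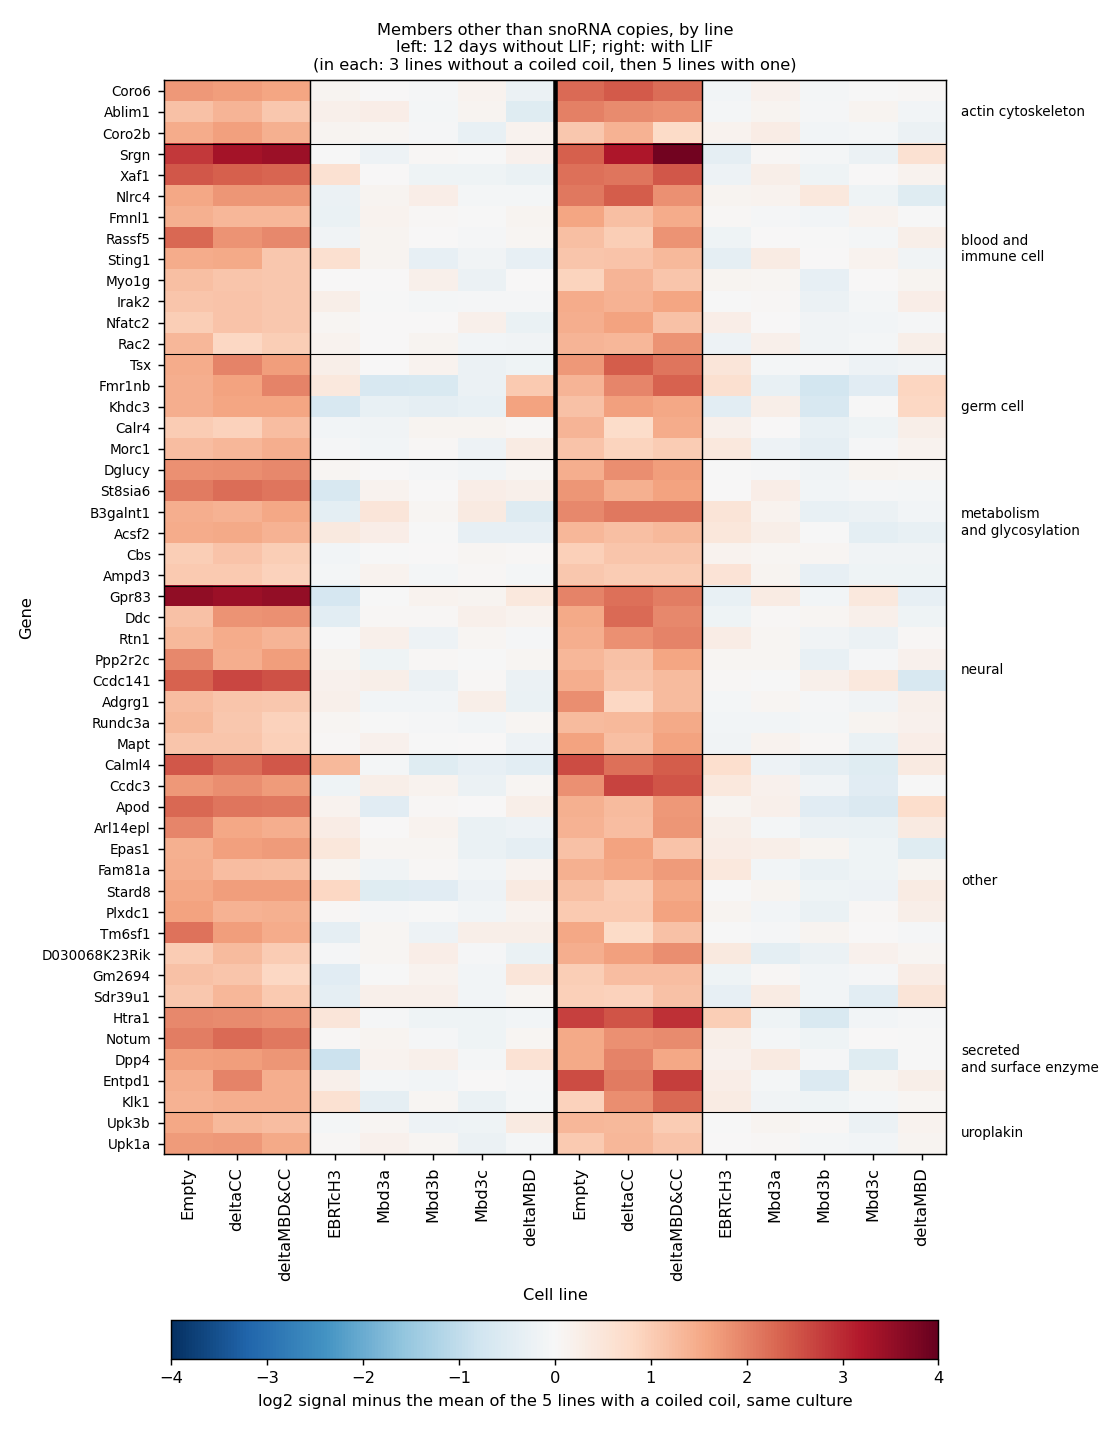
Each row is 1 of the 51 members other than snoRNA copies, grouped by role, and each column a line, with cultures of 12 days without LIF on the left and cultures with LIF on the right. Colour gives the log2 signal minus the mean of the 5 lines with a coiled coil in the same culture: Empty, deltaCC and deltaMBD&CC are raised throughout, and Khdc3 and Fmr1nb are raised in deltaMBD too.

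The 3 lines without a coiled coil were close to each other for these 51 genes. Measured against the mean of EBRTcH3, Mbd3a, Mbd3b and Mbd3c, the median excess without LIF was 1.48 in Empty, 1.49 in deltaCC and 1.47 in deltaMBD&CC. With LIF it was 1.47 in Empty, 1.45 in deltaCC and 1.67 in deltaMBD&CC. The excess of deltaMBD over the same 4 lines had a median of 0.06 without LIF and 0.11 with LIF, with 27 and 30 of the 51 genes above 0. The rule set Empty, deltaCC and deltaMBD&CC against the other 5 lines, so the side on which each line falls is part of the selection and is no finding.

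The sample titles are numbered in 2 runs, 1 to 10 (EBRTcH3, Mbd3a, Mbd3b, Mbd3c and Empty) and 15 to 20 (deltaMBD, deltaCC and deltaMBD&CC), and each run holds both classes. Within the first run, Empty exceeded the mean of its 4 companions by at least 1 for 49 of the 51 genes without LIF and for 48 with LIF. Within the second run, the mean of deltaCC and deltaMBD&CC exceeded deltaMBD by at least 1 for 46 genes without LIF and for 42 with LIF. These differences within runs are parts of the class difference that chose the genes, and are a description only.

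Srgn encodes serglycin, the proteoglycan of secretory granules in blood cells, and had the largest smaller-of-2 difference of all members. Without LIF it read 8.20 in Empty, 8.70 in deltaCC and 8.79 in deltaMBD&CC, against 5.37 in EBRTcH3, 5.56 in deltaMBD and 5.16, 5.43 and 5.35 in Mbd3a, Mbd3b and Mbd3c. With LIF it read 8.45, 9.31 and 9.92 in the same 3 lines without a coiled coil, against 5.72 in EBRTcH3, 6.67 in deltaMBD and 6.13, 5.98 and 5.84 in Mbd3a, Mbd3b and Mbd3c. The classes stood far apart in either medium, at 9.12-fold without LIF and 8.93-fold with LIF. Among the lines without a coiled coil Empty was lowest in both media, and with LIF deltaMBD was the highest of the lines with a coiled coil.

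Entpd1 and Htra1 act outside the cell. Entpd1 (CD39) is the membrane enzyme that breaks down extracellular ATP and ADP. It averaged 6.12 ± 0.30 (SD, n = 3) in lines without a coiled coil and 4.50 ± 0.12 (SD, n = 5) in lines with it after LIF withdrawal. With LIF the averages were 7.26 ± 0.36 and 4.79 ± 0.33 for the same classes, a 5.56-fold difference against 3.09-fold without LIF. Htra1, a secreted serine protease, read 8.48, 8.43 and 8.37 without LIF in Empty, deltaCC and deltaMBD&CC, against 7.04 in EBRTcH3 and 6.37 to 6.49 in the other lines with a coiled coil. With LIF it read 8.76, 8.53 and 8.94 in the lines without a coiled coil, against 6.99 in EBRTcH3 and 5.40 to 5.96 in the others with it. EBRTcH3 was the highest of the lines with a coiled coil for Htra1 in both media, 0.62 above the mean of Mbd3a, Mbd3b and Mbd3c without LIF and 1.28 above it with LIF.

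Ccdc3, a secreted protein, was the member with the highest mean signal in lines without a coiled coil after LIF withdrawal. It read 9.53 in Empty, 9.64 in deltaCC and 9.50 in deltaMBD&CC without LIF, against 7.54 to 8.01 in lines with a coiled coil. With LIF the values were 8.94, 9.81 and 9.61 in the lines without a coiled coil, against 6.66 to 7.52 in lines with it. The class difference was 1.77 without LIF and 2.36 with LIF.

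Promoter sequences were read from RefSeq (GRCm38.p6), in windows of 300 bases from 250 before to 50 after an annotated transcript start, for 41 of the 77 members. For the 11 of these with several windows the first listed was taken. The start used lay within 1000 bases of the gene's outermost annotated start for 31 members and farther inside the gene for 10, Rassf5, Rtn1 and Stard8 among them; for the 5 genes shown it lay at the outermost start for Srgn, Htra1 and Entpd1, 465 bases inside it for Ccdc3 and 1017 bases inside it for Khdc3. The sequences below, of Srgn, Htra1, Entpd1, Ccdc3 and Khdc3, are shown because the signal of the first 4 marks the members and because Khdc3 was the exception; CG dinucleotides, the motif searched, are in capitals (the motif reads the same on both strands), and each sequence runs 5′ to 3′ on the gene's strand. Srgn is at chr10:62527396-62527695, minus strand; Htra1 at chr7:130935953-130936252, plus strand; Entpd1 at chr19:40612116-40612415, plus strand; Ccdc3 at chr2:5137526-5137825, plus strand; Khdc3 at chr9:73102148-73102447, plus strand.
Srgn: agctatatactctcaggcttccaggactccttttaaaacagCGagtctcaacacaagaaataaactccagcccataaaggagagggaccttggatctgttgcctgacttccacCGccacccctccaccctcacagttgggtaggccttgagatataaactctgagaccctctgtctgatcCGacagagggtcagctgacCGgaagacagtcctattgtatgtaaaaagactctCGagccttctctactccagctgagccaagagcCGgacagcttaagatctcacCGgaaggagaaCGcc
Htra1: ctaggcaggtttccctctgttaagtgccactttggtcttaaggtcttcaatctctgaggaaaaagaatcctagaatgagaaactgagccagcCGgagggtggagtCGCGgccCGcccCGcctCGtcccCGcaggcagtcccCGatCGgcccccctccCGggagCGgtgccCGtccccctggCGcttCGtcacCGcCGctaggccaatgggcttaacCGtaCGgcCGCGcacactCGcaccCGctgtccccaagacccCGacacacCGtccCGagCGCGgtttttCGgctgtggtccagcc
Entpd1: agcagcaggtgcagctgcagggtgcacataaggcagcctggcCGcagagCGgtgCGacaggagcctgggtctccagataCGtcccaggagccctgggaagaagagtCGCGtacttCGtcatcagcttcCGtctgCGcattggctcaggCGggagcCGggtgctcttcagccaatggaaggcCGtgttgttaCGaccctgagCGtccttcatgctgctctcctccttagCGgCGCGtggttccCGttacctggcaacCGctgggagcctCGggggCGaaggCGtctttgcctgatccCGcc
Ccdc3: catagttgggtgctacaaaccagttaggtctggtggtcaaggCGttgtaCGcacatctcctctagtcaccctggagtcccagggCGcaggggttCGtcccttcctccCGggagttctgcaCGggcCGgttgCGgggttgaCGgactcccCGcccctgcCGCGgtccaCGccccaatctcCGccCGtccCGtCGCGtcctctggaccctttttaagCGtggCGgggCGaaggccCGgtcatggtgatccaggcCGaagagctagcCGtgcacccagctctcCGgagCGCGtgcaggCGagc
Khdc3: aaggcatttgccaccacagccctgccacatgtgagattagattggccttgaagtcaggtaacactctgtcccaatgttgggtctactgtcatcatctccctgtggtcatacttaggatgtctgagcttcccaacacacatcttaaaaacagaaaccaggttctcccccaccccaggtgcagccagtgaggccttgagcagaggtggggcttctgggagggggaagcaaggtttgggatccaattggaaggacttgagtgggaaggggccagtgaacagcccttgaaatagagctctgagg
The 5 windows held 8, 28, 23, 28 and 0 CG dinucleotides in the order shown. The number over the 41 members ran from 0 to 43, with a median of 9.0, and 22 members (53.7%) held fewer than 10. Fewer than 10 were found in the windows of 44.7% of all 17963 measured genes with a window (median 12.0), and in 13.6% of the 7955 among them with a maximum signal above 7 (median 22.0). At the other end, 18 members (43.9%) held 20 or more, against 34.8% of measured genes and 58.6% of those above 7. Members pass the limit of 7 through the lines where they are high, so these shares are a description. Over the 31 members with a start within 1000 bases of the outermost start the median was 18.0, and 15 (48.4%) held fewer than 10. Measured genes were not limited in the same way, so these values have no like background. Upk1a was the other member without any CG, and Fmnl1 held the most; 5.04% of measured genes had none.

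**Figure D2:**
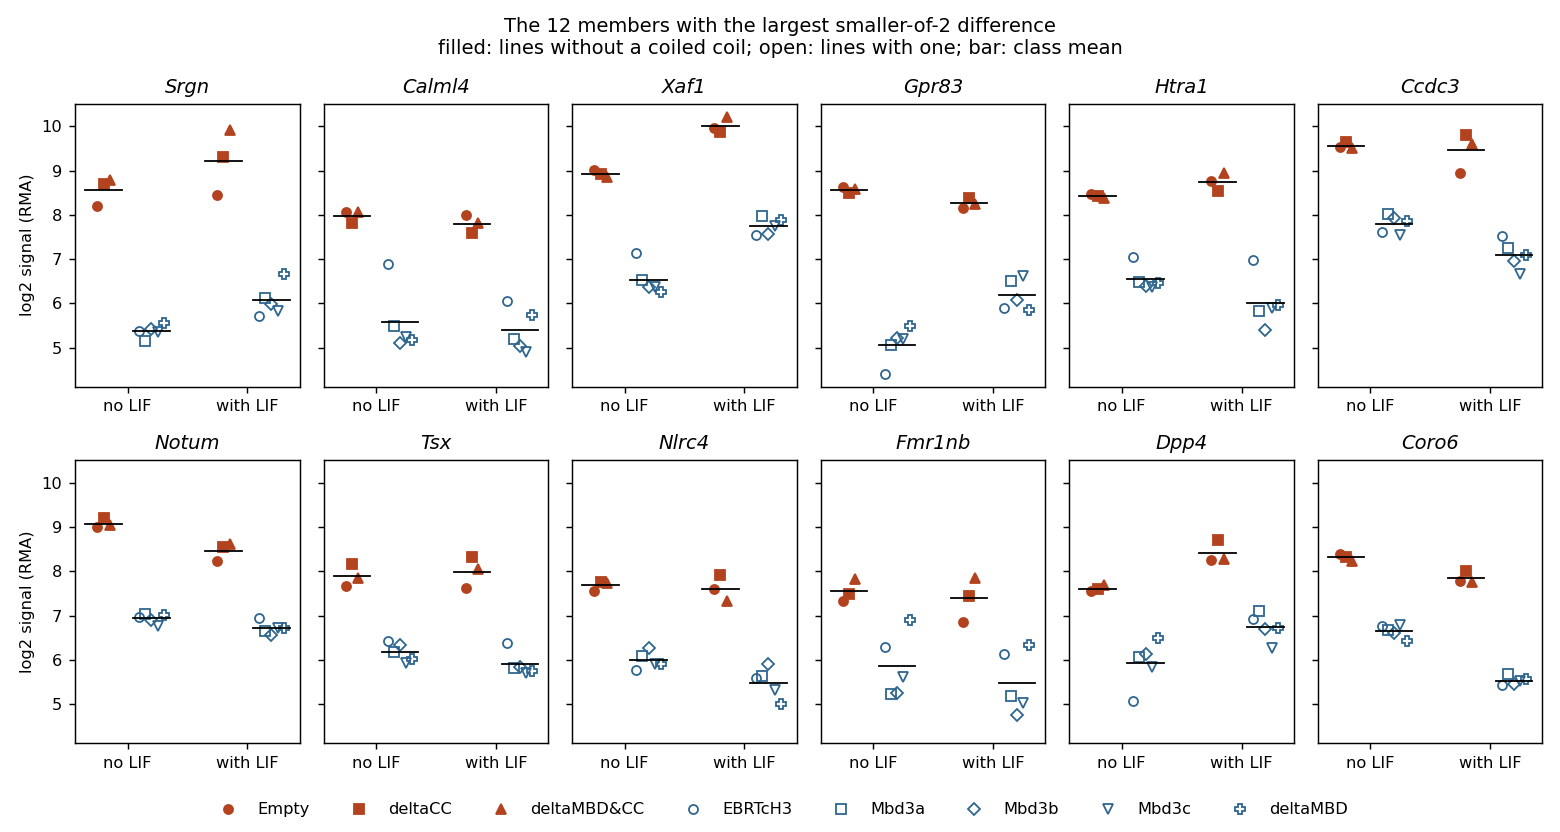
The 12 members with the largest smaller-of-2 difference, with log2 signal on the vertical axis; filled symbols are Empty, deltaCC and deltaMBD&CC, open symbols the 5 lines with a coiled coil, and bars class means, with cultures without LIF left of cultures with LIF in each panel. No filled symbol falls below an open symbol of the same culture, and EBRTcH3 is the highest of the open symbols for Calml4 and Htra1 in both.

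Secreted or surface enzymes among the members numbered 5, with class differences of 1.43 to 2.14 without LIF and of 1.67 to 2.73 with LIF. Besides Htra1 and Entpd1 these were Notum, a secreted carboxylesterase that removes the lipid of Wnt proteins; Dpp4 (CD26), a surface dipeptidase; and Klk1, a tissue kallikrein. Notum read 9.00 to 9.20 without LIF in lines without a coiled coil, against 6.76 to 7.05 in lines with it, and 8.23 to 8.63 with LIF, against 6.56 to 6.95. Dpp4 differed by 1.69 without LIF and by 1.67 with LIF, and Klk1 by 1.43 and 1.70. With LIF, Klk1 was the most uneven of the 5 within its class, at 5.81 in Empty, 6.74 in deltaCC and 7.19 in deltaMBD&CC, all above the 4.70 to 5.20 of the lines with a coiled coil.

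Genes best known from blood and immune cells numbered 10, with differences of 1.04 to 3.19 without LIF and of 1.12 to 3.16 with LIF. Xaf1, an interferon-induced antagonist of the caspase inhibitor XIAP, averaged 8.93 ± 0.09 (SD, n = 3) without LIF in lines without a coiled coil and 6.53 ± 0.35 (SD, n = 5) in lines with it. With LIF, its averages were 10.01 ± 0.18 and 7.74 ± 0.20 for the same classes. Nlrc4, an inflammasome receptor, read 7.55 to 7.77 without LIF in lines without a coiled coil, against 5.77 to 6.27 in lines with it, and 7.33 to 7.91 with LIF, against 5.01 to 5.90. Rassf5, a Ras effector of lymphocytes, differed by 2.01 without LIF and by 1.33 with LIF. The other members of this group were Rac2, a small GTPase of blood cells; the formin Fmnl1; the myosin Myo1g; the transcription factor Nfatc2; Irak2, a kinase of Toll-like receptor signalling; and Sting1, the adaptor of the cytosolic DNA sensor.

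Of 21 measured markers of blood and endothelium, 5 were at least 1 higher without LIF and 3 with LIF. Of these, 2 in each medium, Srgn and Entpd1, are members and were counted through the rule. Among the 12371 genes with a maximum signal above 7, 214 were at least 1 higher without LIF and 219 with LIF. The list had no limit on signal, so its counts and these are not alike. The median difference of the list was 0.09 without LIF and 0.17 with LIF. The list's mean log2 signal per line was 6.14 to 6.25 in lines without a coiled coil and 5.72 to 5.85 in lines with it after LIF withdrawal, and 6.13 to 6.43 and 5.67 to 5.90 with LIF. Without the members Srgn and Entpd1 the mean of the other 19 genes was 6.04 to 6.13 in lines without a coiled coil and 5.80 to 5.94 in lines with it after LIF withdrawal. With LIF it was 5.95 to 6.19 in lines without a coiled coil and 5.72 to 5.95 in lines with it. Besides these members, Tek differed by 1.73, Pecam1 by 1.14 and Eng by 1.09 without LIF, and Cd34 by 1.53 with LIF; Kit differed by 0.96 without LIF and by 0.85 with LIF, and Runx1 by -1.13 without LIF. Ptprc (CD45), the defining surface marker of white blood cells, read 3.10 to 3.18 in lines without a coiled coil and 2.88 to 3.11 in lines with it without LIF, and 3.01 to 3.32 and 2.86 to 3.24 with LIF. The Ptprc values lie below the 40th percentile of probe sets on every array (4.24 to 4.38), and the part of other cells in the result was not tested beyond these values. In bulk RNA, more cells expressing a gene and more RNA per cell cannot be told apart.

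Genes known from germ cells or the early embryo numbered 5: Tsx, a testis gene of the X inactivation centre; Fmr1nb, a cancer-testis antigen in humans; Khdc3 (Filia), a maternal factor of the oocyte; Morc1, which silences transposons in male germ cells; and Calr4. Tsx read 7.68 to 8.17 without LIF in lines without a coiled coil, against 5.94 to 6.43 in lines with it, and 7.62 to 8.32 with LIF, against 5.70 to 6.38. Khdc3 and Fmr1nb were set apart by the deltaMBD line. Khdc3 read 7.08 in Empty, 7.21 in deltaCC and 7.22 in deltaMBD&CC without LIF, against 7.23 in deltaMBD and 4.99 to 5.34 in the other 4 lines with a coiled coil. With LIF it read 7.16 in Empty, 7.61 in deltaCC and 7.53 in deltaMBD&CC, against 6.81 in deltaMBD and 5.35 to 6.20 in the others with a coiled coil.

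For Khdc3 the deltaMBD line thus read as high as the lines without a coiled coil after LIF withdrawal. As a percentage of the way up from the mean of EBRTcH3, Mbd3a, Mbd3b and Mbd3c to the mean of the lines without a coiled coil, deltaMBD stood at 103% for Khdc3 without LIF and at 62.6% with LIF. For Fmr1nb the same positions were 67.2% and 50.2%, with 6.91 in deltaMBD without LIF and 6.34 with LIF. For Apod, Khdc3, Fmr1nb and Sdr39u1 with LIF deltaMBD stood above 50%. Across the 51 genes the position had a median of 4.06% without LIF and of 6.26% with LIF. These positions rest on a single deltaMBD array per medium.

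Genes best known from neurons numbered 8, with differences of 1.06 to 3.49 without LIF and of 1.27 to 2.07 with LIF. Gpr83, a G protein-coupled receptor of the brain, had the largest difference of any member in any medium. It read 8.62 in Empty, 8.49 in deltaCC and 8.58 in deltaMBD&CC without LIF, against 4.41 in EBRTcH3 and 5.06 to 5.48 in the other lines with a coiled coil, an 11.2-fold difference. Ccdc141, which acts in neuronal migration, read 7.32 to 7.62 without LIF in lines without a coiled coil, against 4.71 to 5.18 in lines with it, a difference of 2.53 against 1.27 with LIF. The others were Mapt, the microtubule-binding protein tau; Rtn1, a neuronal reticulon; Ddc, the decarboxylase that makes dopamine and serotonin; Adgrg1, an adhesion receptor of neural progenitors; Ppp2r2c and Rundc3a. These ranged over 1.06 to 1.68 without LIF and over 1.31 to 1.90 with LIF.

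The remaining groups were small. The actin regulators were the coronins Coro6 and Coro2b and the actin-binding Ablim1, which differed by 1.20 to 1.67 without LIF and by 1.07 to 2.32 with LIF. The 6 metabolic and glycosylation enzymes differed by 1.01 to 2.15 without LIF and by 1.04 to 2.05 with LIF. They were St8sia6, a sialyltransferase; B3galnt1; Cbs, the first enzyme of transsulfuration; Ampd3, an AMP deaminase; Acsf2, an acyl-CoA synthetase; and Dglucy, a D-glutamate cyclase. The uroplakins Upk1a and Upk3b, membrane proteins of the urothelium, differed by 1.66 and 1.35 without LIF and by 1.16 and 1.21 with LIF.

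The 12 members placed in no such group differed by 1.04 to 2.40 without LIF and by 1.01 to 2.41 with LIF. Calml4, a calmodulin-like protein of the intestinal brush border, led them. It read 8.06 in Empty, 7.81 in deltaCC and 8.07 in deltaMBD&CC without LIF, against 6.88 in EBRTcH3 and 5.10 to 5.50 in the other lines with a coiled coil. With LIF it read 7.99, 7.58 and 7.82 in the lines without a coiled coil, against 6.05 in EBRTcH3 and 4.91 to 5.75 in the others. Apod, a lipocalin that carries small lipids, differed by 2.18 without LIF and by 1.48 with LIF. Epas1, the hypoxia-inducible factor HIF-2α, and Arl14epl, Fam81a, Plxdc1, Sdr39u1, Stard8, Tm6sf1 and Ccdc3 completed the named genes of this kind, beside the 2 long non-coding RNAs.

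The limit of 1 cut through a continuum. Just inside it were Morc1 with 1.34 without LIF and 1.01 with LIF, Ampd3 with 1.01 and 1.04, and Sdr39u1 with 1.16 and 1.01. Just outside were Tm4sf5 with 0.997 and 1.95, Peli2 with 0.989 and 0.972, and Gstp3 with 1.74 and 0.969. The next counts are among the 12371 genes with a maximum signal above 7, with none left out by symbol. The reverse pattern, lower by at least 1 in both media, held for 45 genes, against 87 higher by as much in both. In all, 214 genes were higher by at least 1 without LIF and 219 with LIF.

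Of the 49 protein-coding members 10 (20.4%) lay on chromosome 11, which holds 7.58% of the protein-coding genes measured. Those 10 were Acsf2, Coro6, Ddc, Fmnl1, Mapt, Myo1g, Notum, Plxdc1, Rundc3a and Xaf1. Of these, Ddc, Mapt and Rundc3a are in the neural group and Fmnl1, Myo1g and Xaf1 in the blood and immune group. Chromosome 11 held the most members other than snoRNA copies, the next highest count being 5, and was picked with these counts seen. The genes measured were not limited to a signal above 7 as the members were. The share was not tested.

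The 26 snoRNA members were copies of 92 to 94 bases in the cluster on chromosome 7 that holds Snord116, between Ipw and Snrpn in the imprinted Prader-Willi region. In mammals these C/D box snoRNAs are processed from introns of the long paternal transcript of Snhg14. The members took 12 distinct sets of 16 values, so copies cannot be counted as independent measurements. Their median difference was 1.68 without LIF (1.57 to 1.92) and 1.06 with LIF (1.00 to 1.32).

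Without LIF the median over the 26 copies was 8.87 in Empty, 8.81 in deltaCC and 8.92 in deltaMBD&CC, against 7.36 in EBRTcH3, 7.31 in deltaMBD and 7.32, 7.15 and 7.17 in Mbd3a, Mbd3b and Mbd3c. The classes were tight and separate for all 26 copies. With LIF the medians were 7.57 in Empty, 8.05 in deltaCC and 8.64 in deltaMBD&CC, against 7.16 in EBRTcH3, 7.42 in deltaMBD and 7.20, 6.41 and 6.75 in Mbd3a, Mbd3b and Mbd3c. There the lines without a coiled coil were spread over more than 1 unit, Empty stood little above deltaMBD, and the classes separated for 19 of the 26 copies. Within the first run of titles no copy reached a difference of 1 with LIF (0.55 to 0.85), and within the second run 9 did. Membership with LIF rested on few lines: without deltaMBD&CC 4 of the 26 copies met the rule, without Mbd3b 8 and without Mbd3c 12.

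**Figure D3:**
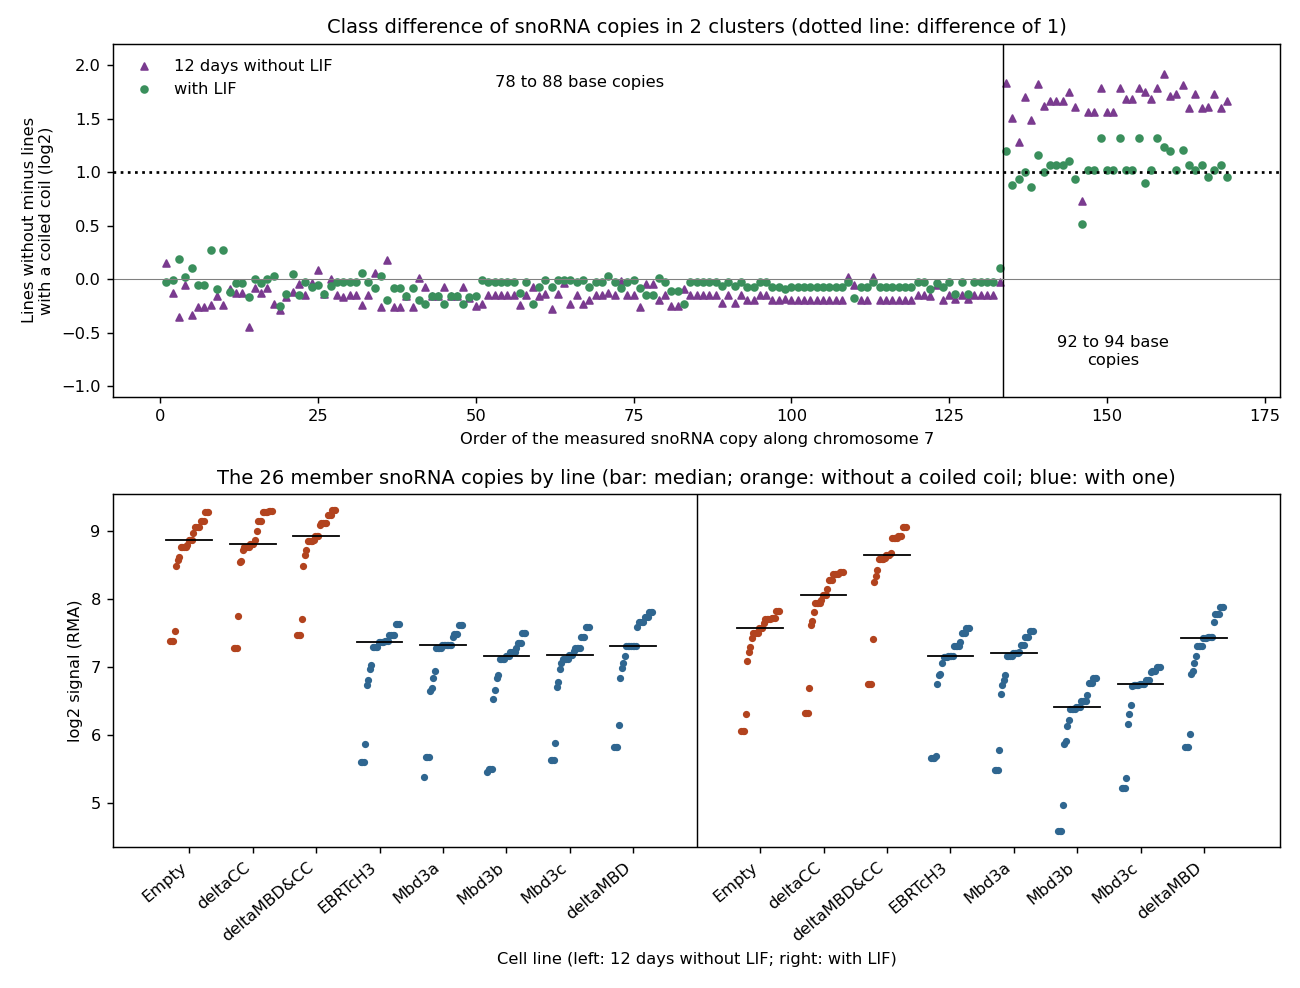
Upper panel: class difference in log2 units of the measured snoRNA copies in their order along chromosome 7, for cultures without LIF (triangles) and with LIF (circles); the 133 copies of 78 to 88 bases lie near 0 and the 36 of 92 to 94 bases lie around 1 with LIF and higher without LIF. Lower panel: log2 signal of the 26 member copies in each line, with the median as a bar; without LIF the 3 lines without a coiled coil stand above the 5 with it.

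The excess extended over the whole cluster and was not seen in the neighbours given here, many of them dim. All 36 measured copies of 92 to 94 bases were higher in lines without a coiled coil, by 0.73 to 1.92 without LIF and by 0.52 to 1.32 with LIF. The 133 measured copies of 78 to 88 bases lay in the neighbouring cluster nearer to Ube3a, and 38 of them had a signal above 7. Their median difference was -0.15 without LIF (-0.45 to 0.18) and -0.05 with LIF (-0.26 to 0.27). Their median signal by class and medium was 3.54 to 3.97. That lies below the 40th percentile of probe sets on every array (4.24 to 4.38), where a difference could hardly show. Snhg14 differed by -0.23 without LIF and -0.40 with LIF, and the ubiquitin ligase gene Ube3a by -0.20 and -0.50. The imprinted genes Ndn and Magel2 differed by -1.69 and -0.71 without LIF and by -0.35 and -0.07 with LIF. Of 174 snoRNA genes elsewhere in the genome with a signal above 7, none reached a difference of 1 without LIF or with LIF. The highest was 0.53 without LIF and 0.84 with LIF, and the medians were -0.03 and -0.18. The lowest was -3.18 in both media, larger in size than the excess of any member copy.

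The response to LIF withdrawal within each class did not enter the rule as such and was tested in limma, with the line as a block and adjustment over 22872 genes. In lines without a coiled coil, 5 of the 51 members other than snoRNA copies rose and 10 fell when LIF was removed, and 36 did not pass an adjusted p of 0.05. Of all genes tested 1.71% rose and 1.22% fell in these lines. In lines with a coiled coil 14 of the 51 rose and 17 fell, and 20 did not pass; of all genes 21.3% rose and 14.5% fell. The median change of the 51 was -0.13 in lines without a coiled coil and -0.21 in lines with it, against 0.00 and 0.04 over all genes. Whether the responses differed between the classes was not tested, since that difference is the difference of the 2 contrasts that chose the members. The same arrays also entered the rule, so the counts describe these genes and no more.

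In lines without a coiled coil the largest rise was that of Ccdc141, by 1.00 (SE 0.18, limma adjusted p = 0.0146), with rises in 3 of 3 lines. Upk1a rose by 0.81 (SE 0.11, limma adjusted p = 0.00408), and Rassf5, Notum and Rtn1 rose by 0.59 to 0.75. Mapt had the largest fall, a change of -1.18 (SE 0.15, limma adjusted p = 0.00248). Entpd1 changed by -1.14 (limma adjusted p = 0.0146), with -1.44 in Empty, -0.39 in deltaCC and -1.58 in deltaMBD&CC. Xaf1, Calr4 and St8sia6 followed with -1.08, -0.88 and -0.82. Leaving out Empty, 1 rise and 1 fall were left among the 51; leaving out deltaCC, 1 and 4; leaving out deltaMBD&CC, 3 and 2.

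In lines with a coiled coil the actin regulator Coro6 rose most, by 1.12 (SE 0.09, limma adjusted p = 4.01e-06), with rises of 0.86 to 1.33 in 5 of 5 lines. Rtn1 rose by 0.98, Ccdc3 by 0.69, Klk1 by 0.66, and Adgrg1 and Htra1 by 0.53. The largest fall was that of St8sia6, a change of -1.37 (SE 0.14, limma adjusted p = 1.97e-05), in 5 of 5 lines. Xaf1 changed by -1.21, Apod by -1.18, Gpr83 by -1.11 and Arl14epl by -0.83, all in 5 of 5 lines. Without Mbd3c 9 of the 51 rose in place of 14.

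Srgn changed by -0.69 in lines with a coiled coil (limma adjusted p = 0.00231) and by -0.66 in lines without it, where it did not pass (limma adjusted p = 0.0809). It was lower without LIF in all 8 lines. Xaf1, St8sia6, Mapt, Calr4, Ddc, Fmnl1 and Ampd3 passed as falls in both classes, and Rtn1 and Upk1a as rises in both. Gpr83 and Htra1 alone changed one way in every line without a coiled coil and the other way in every line with it. Other members had opposite mean changes without that agreement of lines, among them Ccdc141, at 1.00 without a coiled coil and -0.26 with it. Gpr83 changed by 0.46, 0.11 and 0.34 in Empty, deltaCC and deltaMBD&CC, against -1.49, -1.44, -0.85, -1.42 and -0.37 in EBRTcH3, Mbd3a, Mbd3b, Mbd3c and deltaMBD. Htra1 changed by -0.28, -0.10 and -0.57 in the lines without a coiled coil, against 0.05, 0.65, 0.99, 0.47 and 0.49 in the lines with it. In lines without a coiled coil neither passed (limma adjusted p = 0.529 for Gpr83 and 0.37 for Htra1).

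**Figure D4:**
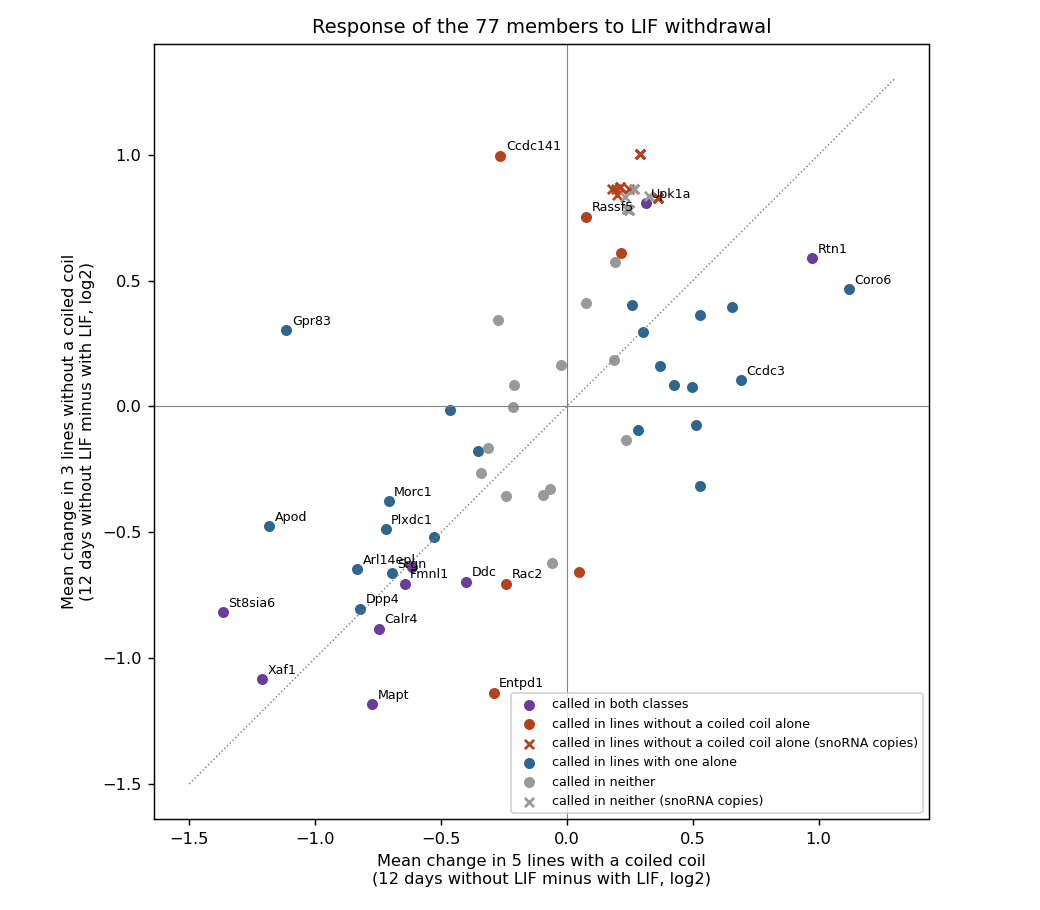
Mean log2 change on LIF withdrawal of each of the 77 members in the 3 lines without a coiled coil (vertical axis) and in the 5 lines with it (horizontal axis); colours show in which class the change passed an adjusted p of 0.05, crosses are snoRNA copies, and the dotted line marks equal changes. Gpr83 and Ccdc141 lie at the upper left, and the snoRNA copies lie together at a rise of 0.78 to 1.00 in lines without a coiled coil.

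Of the 26 snoRNA copies 14 rose on LIF withdrawal in lines without a coiled coil, and the copies changed by 0.78 to 1.00 (median 0.84). In lines with a coiled coil they changed by 0.18 to 0.36 (median 0.25) and none passed, the smallest limma adjusted p being 0.0752; 4 of 26 had an unadjusted p under 0.05. Since copies share values, these counts stand for few measurements. The first count was 0 without Empty, 0 without deltaCC, 26 without deltaMBD&CC, 6 without Mbd3a, 4 without Mbd3c and 26 without deltaMBD. With no line block it was 3. In lines with a coiled coil 4 copies rose when Empty or deltaMBD&CC was left out of the fit.

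Deletion of the methyl-CpG-binding domain was tested over the 4 MBD3a constructs (deltaMBD and deltaMBD&CC against Mbd3a and deltaCC), with the coiled coil as a term. By limma no member passed in either medium, nor did any of the 22872 genes (0% called higher and 0% lower), while 1644 genes without LIF and 3335 with LIF had an unadjusted p under 0.05. The fit left 2 residual degrees of freedom, and these hold the difference in effect between constructs with and without a coiled coil. Khdc3 without LIF read 5.34 in Mbd3a and 7.23 in deltaMBD, against 7.21 in deltaCC and 7.22 in deltaMBD&CC. A change of that kind, seen only beside a coiled coil, is diluted in the estimate and adds to the error. The test could thus hardly call it, and nothing is read from the absence of calls. Among members 4 had an unadjusted p under 0.05 without LIF and 33 with LIF, 18 of them snoRNA copies. Fmr1nb, with the largest change, was 1.02 higher without LIF (SE 0.31, limma adjusted p = 0.686) and 0.78 higher with LIF (limma adjusted p = 0.311) in the MBD-deleted constructs. Over the 51 members other than snoRNA copies the median change was -0.04 without LIF and 0.13 with LIF, against -0.02 and 0.04 over all genes. The snoRNA copies changed by a median of 0.09 without LIF and of 0.44 with LIF.

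Of 11 measured purinergic ectoenzymes and receptors Entpd1 was the only member. Of the other ectonucleotidases Nt5e, which makes adenosine, differed by -0.88 without LIF and by 1.47 with LIF, and Enpp3 by -0.11 and -1.51. Entpd2, Entpd3 and Entpd8 differed by -0.32, -0.28 and -0.03 without LIF and by -0.16, 0.09 and -0.12 with LIF. Of 12 genes on a list of HTRA and other serine proteases, not all of them secreted, Htra1 and Klk1 were members. Htra2, Htra3 and Htra4 differed by -0.43, 0.05 and 0.16 without LIF and by -0.02, 0.18 and 0.16 with LIF. Of 20 proteoglycan core proteins Srgn was the only member, and the median difference of the list was -0.23 without LIF and 0.26 with LIF. On LIF withdrawal 3 of the 19 proteoglycans tested rose in lines without a coiled coil, where 1.71% of all genes rose. Where a coiled coil was present 13 of the 19 rose and 1 fell, Srgn, while 21.3% of all genes rose and 14.5% fell.

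Of 15 genes on a list of germline and methylation-silenced germ cell genes, 3 were at least 1 higher without LIF and 2 with LIF. Among the 12371 genes with a maximum signal above 7, 214 were so without LIF and 219 with LIF. The list had no limit on signal, so the 2 sets of counts are not alike. Whether the listed genes are methylated in these lines was not tested. Sohlh2, a transcription factor of germ cells, met the rule, with differences of 3.69 without LIF and 3.25 with LIF, and was left out by its symbol alone. Dazl, an RNA-binding protein of germ cells, differed by 1.01 in both media and missed only the limit on signal, with a highest value of 6.90. Hormad1, a protein of meiotic chromosomes, differed by 1.22 without LIF and by -0.51 with LIF, and Sycp3, of the synaptonemal complex, by -0.58 and -2.26. No gene of this list was thus a member. Nor was any member found among 18 pluripotency genes, 10 primed epiblast genes, 16 trophectoderm genes, 14 extraembryonic endoderm genes, 10 genes of the 2-cell-like state, 14 NuRD subunits or 10 markers of fibroblast feeder cells. The fibroblast markers averaged 5.49 to 5.57 without LIF in lines without a coiled coil and 5.72 to 6.27 in lines with it, and 5.32 to 5.59 and 5.40 to 5.49 with LIF.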

How the data were processed

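The authors' deposited values are log2 signals from RMA (affy), per the submitters' processing notes; versions and genome build: not given in the sources used here. Values ran from 0.98 to 14.21 over 65770 probe sets, 27 of them empty. Probe sets with 1 symbol (30439) were used, 2146 with several and 33185 with none were not, and symbols were updated through Entrez identifiers (22650 matched, 827 changed) with RefSeq's GRCm38.p6 table, used for names, chromosomes and neighbours. The probe set with the highest mean stood for a gene. Fits used limma 3.58.1 in R 4.3.3 on 22872 genes above the array's 40th percentile on at least 3 arrays, with Benjamini-Hochberg adjustment over all of them, and were tested on simulated data. Both cultures of a line come from the same cells, per the labels, and line was a block in the LIF fits; deviations of the 2 arrays correlated at -0.05 to 0.28. Signal over background and 16 arrays limit the precision.

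The members, 12 gene lists and role groups were chosen with earlier results of these data known. Named genes are Mbd3, Srgn, Htra1, Entpd1 and Ccdc3, the 12 largest smaller-of-2 differences, the 5 largest differences in each medium, up to 5 rises and 5 falls on LIF withdrawal in each class, up to 4 each side for MBD deletion, 3 genes either side of the limit and members on a list. Khdc3 and other members were named after their values were seen, as were neighbours of the snoRNA cluster and genes singled out of a list; the limit on promoter windows and the blood list without its members were added then too. Alternatives changed the limit on signal, the probe set rule, normalization, centring, the dim-gene filter, weights, the line block and each line.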

Additional observations from a re-analysis of the deposited data

Results flagged for a closer look

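Among 102 sets of 5 lines with a coiled coil, 1 for each of the 51 members other than snoRNA copies in each medium, a line stood far from the other 4 in 7, and chance gives about 1 in 20. The line was EBRTcH3 in 5 of them. It was above the other lines for Htra1 without LIF (7.04 against 6.37 to 6.49), Calml4 without LIF (6.88 against 5.10 to 5.50), Irak2 without LIF (6.70, against 6.45 or less) and Tsx with LIF (6.38 against 5.70 to 5.84), and below them for Ddc without LIF (5.77 against 6.22 to 6.39). Khdc3 without LIF was high in deltaMBD, at 7.23 against 4.99 to 5.34, and Myo1g with LIF was low in Mbd3b, at 6.24 against 6.58 to 6.70. EBRTcH3 alone had no vector and no knockout of Mbd3, so line, vector and knockout cannot be told apart here.

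Gpr83 and Htra1 changed one way on LIF withdrawal in all 3 lines without a coiled coil and the other way in all 5 lines with it. The mean change of Gpr83 was 1.42 higher in lines without a coiled coil, and that of Htra1 differed by -0.85. These differences were not tested.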

How the results depend on the processing

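The rule gave 77 members, and 56 to 87 under all alternatives tried (56 to 87 when a line was left out). Of the 51 members other than snoRNA copies, 45 to 50 met the rule without any 1 line, 50 after quantile normalization and 46 with arrays centred on their medians; of the snoRNA copies 18 and 9 did under the last 2, and none within the first run of titles.

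On LIF withdrawal in lines without a coiled coil, leaving out a line gave 1 to 7 rises and 1 to 12 falls among the 51, and 0 to 26 rises of snoRNA copies. With array weights 10 of the 51 rose. The snoRNA count of 14 became 3 with no replicate block, 5 with no filter on dim genes, 25 after quantile normalization, 26 with array weights and 26 with the run of titles as covariate. In lines with a coiled coil, leaving out a line gave 9 to 13 rises among the 51 and 0 to 4 of snoRNA copies; 9 of the 51 rose after quantile normalization, and 4 snoRNA copies rose with array weights. The cause of these shifts was not tested, other than that fewer lines were fitted. MBD deletion gave 0 members under each alternative, also as 1 effect shared by both media; a line block could not be fitted there.

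Of 32 calls of named members, none changed sign in 416 refits and 48 refits missed the threshold. With no replicate block, Htra1 (adjusted p = 0.0614), Tsx (0.163) and Fmr1nb (0.439) did so in lines with a coiled coil. Signal over background limits what low members can show: Entpd1 lay at 4.24 to 5.05 in lines with a coiled coil.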
